A study of Mus musculus with 2 samples.

Results

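AT1 identity genes are genes whose transcripts mark the alveolar type 1 (AT1) cell. The 10 considered here are Ager, Pdpn, Hopx, Rtkn2, Akap5, Spock2, Clic5, Lmo7, S100a14 and Limch1, taken by symbol from the 27998 genes of the deposited tables, and all 10 were found. Their levels were measured by droplet-based scRNA-seq in mouse lung organoids. Alveolar type 2 (AT2) cells carrying the Sftpc-CreERT2;R26RTomato alleles, in which tamoxifen labels Sftpc-expressing cells, were isolated from C57BL/6 mice and grown with lung stromal cells in organoid culture, for 2 weeks by the series' own description. Organoids of the control group received PBS and those of the other group received interleukin-1β (IL-1β). The sources disagree on the dose of IL-1β and on the culture time, and give mouse ages for most experiments of the study rather than for these cultures. Each group is 1 library, so no p-value or standard error between groups can be given. The 95% intervals below cover counting error only, and what IL-1β did and what set the library preparations apart cannot be told apart.

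AT1 cells are the thin, spread cells that form most of the alveolar surface and carry gas exchange, and AT2 cells are the surfactant-making cells that divide and give rise to AT1 cells. Cells on the way from AT2 to AT1 pass through a transitional state high in keratin 8. Among the members, Ager encodes RAGE, a pattern receptor held at the basal surface of AT1 cells, and Pdpn encodes podoplanin, a mucin-type membrane protein. Spock2 encodes testican-2, a secreted proteoglycan. Clic5, Lmo7 and Limch1 encode proteins that meet the actin skeleton: CLIC5 binds ezrin, LMO7 sits at cell junctions, and LIMCH1 activates non-muscle myosin II. Rtkn2 encodes rhotekin 2. Akap5 encodes a scaffold for protein kinase A and calcineurin, Hopx a homeodomain protein that does not bind DNA itself, and S100a14 a calcium-binding protein of the S100 family.

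The members lie apart in the genome apart from pairs that share a chromosome (GRCm38, GENCODE M21). Ager lies on chromosome 17 from 34597862 to 34600936 and Clic5 on chromosome 17 from 44188584 to 44280172, both on the plus strand. Spock2 lies on chromosome 10 from 60106219 to 60135198 and Rtkn2 on chromosome 10 from 67979570 to 68059740, both on the plus strand. Limch1 lies on chromosome 5 from 66745827 to 67057158 on the plus strand and Hopx on chromosome 5 from 77086988 to 77115121 on the minus strand. Pdpn lies on chromosome 4 from 143267431 to 143299564 on the minus strand. S100a14 spans chromosome 3 from 90526856 to 90528837, Akap5 chromosome 12 from 76324891 to 76334153 and Lmo7 chromosome 14 from 101729957 to 101934710, all on the plus strand. Exons of 2 members overlap a gene on the other strand, Hopxos at Hopx and Gm16212 at Rtkn2, and the counts are of 3′-end reads in the sense direction.

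Promoters of 8 members were in the RefSeq table (GRCm38.p6), with 12 start sites in all. The 250 bases before each start were searched on both strands for GGAATG, read by TEAD factors, for CTTGAG, read by NKX2-1, and for TATAAA, the TATA box. No member promoter held GGAATG, which 12.6% of all 32851 promoters held. CTTGAG was in 2 member promoters, those of Hopx and Spock2, against 13.3% of all promoters, and TATAAA was in 1, at an inner start of Limch1, against 12.4%. At Limch1 these letters lay on the strand opposite to the gene, from 76 bases before that start, and are not read as its TATA box. Windows of 3 members are shown because they stand for different courses in the results. Ager was found in every AT1-like cell, though also in most AT2-like cells. Spock2 differed most between the libraries in AT1-like cells, and Hopx shares the CTTGAG letters with Spock2. Capitals mark CTTGAG, which begins 207 bases before the start of Spock2 and 112 bases before that of Hopx. The Spock2 window was cut at the first base of the GENCODE exon, which lies upstream of the RefSeq start. All are written 5′ to 3′ on the strand of the gene, from chr17:34597600-34597849 (plus), chr10:60106007-60106218 (plus) and chr5:77115124-77115373 (minus).
Ager: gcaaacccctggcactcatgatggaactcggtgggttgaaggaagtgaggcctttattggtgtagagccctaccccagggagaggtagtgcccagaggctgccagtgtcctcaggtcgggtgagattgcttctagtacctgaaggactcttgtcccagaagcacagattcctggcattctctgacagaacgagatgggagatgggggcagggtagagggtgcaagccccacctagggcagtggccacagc
Spock2: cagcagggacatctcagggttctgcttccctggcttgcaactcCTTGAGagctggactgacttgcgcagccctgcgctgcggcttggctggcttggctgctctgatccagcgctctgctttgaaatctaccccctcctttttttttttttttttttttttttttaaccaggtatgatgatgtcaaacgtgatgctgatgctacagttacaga
Hopx: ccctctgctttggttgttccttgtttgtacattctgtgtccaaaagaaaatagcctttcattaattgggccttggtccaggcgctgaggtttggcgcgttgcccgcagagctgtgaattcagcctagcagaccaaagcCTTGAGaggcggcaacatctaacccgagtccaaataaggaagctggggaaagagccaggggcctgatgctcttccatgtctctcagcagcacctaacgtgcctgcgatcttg

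The control library held 2101 cell barcodes and 33965848 unique molecular identifiers (UMIs), and the IL-1β library 3066 barcodes and 41220175 UMIs. The median depth was 14613 UMIs per control barcode and 11496.5 per IL-1β barcode, and 11 barcodes occurred in both. After filtering, cells were clustered without the members and named from other marker genes. In the control library, 946 cells were AT2-like, 109 transitional, 230 AT1-like and 796 stromal. In the IL-1β library, 1883 were AT2-like, 293 transitional, 398 AT1-like, 475 stromal and 9 airway-like. The libraries hardly mixed, and in 11 of 12 epithelial clusters 95% or more of the cells were from a single library. The AT1-like name of the IL-1β cells rested on comparison within their own library, where AT1 markers stood a mean of 2.31 log2 units and transitional markers 0.77 above the remaining epithelial cells. Compared with the epithelial cells of both libraries, the same cluster scored 1.14 for AT1 and 1.15 for transitional markers. By that comparison the control transitional cluster would be AT1-like, at 0.0220 for AT1 and -0.07 for transitional markers, and an IL-1β AT2-like cluster of 513 cells would be transitional, at 0.285. The 10 naming markers of AT1 cells summed to 8477 counts per 1000000 UMIs (CPM) in control AT1-like cells, 4644 in IL-1β AT1-like cells, 973 in control AT2-like cells and 665 in IL-1β AT2-like cells. The doublet caller marked 3 of 5142 cells, so doublets were in effect not removed.

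Every member was higher in AT1-like than in AT2-like cells of its own library. The ratio passed 2-fold for 10 of 10 members in the control library, where 18.2% of the 10306 genes with at least 50 UMIs did so, and for 10 of 10 in the IL-1β library, where 11.2% of 11104 genes did. The median log2 ratio of the members was 5.01 for control cells, beside 0.37 over all genes, and 3.99 for IL-1β cells, beside 0.29. These shares describe 1 library each. Levels are compared below within a gene, since 3′-end counts are not scaled to gene length.

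Among the surface and matrix genes, Ager stood at 13252 CPM in control AT1-like cells (interval 13128 to 13377), 2565 in transitional, 924 in AT2-like and 324 in stromal cells. With IL-1β it stood at 7082 CPM in AT1-like cells (interval 7010 to 7155), 1633 in transitional, 526 in AT2-like and 128 in stromal cells. The order of the classes was the same in both libraries, and no neighbouring intervals overlapped. Pdpn stood at 351 CPM in control AT1-like cells, 139 in stromal, 36.1 in transitional and 16.7 in AT2-like cells. With IL-1β, Pdpn was highest in stromal cells, at 506 CPM (interval 492 to 520), ahead of 286 in AT1-like cells (interval 271 to 301), 99.8 in transitional and 51.3 in AT2-like cells. Pdpn was thus higher in AT1-like than in stromal cells with PBS and lower with IL-1β, with intervals apart in both libraries. Spock2 stood at 246 CPM in control AT1-like cells, 14.0 in transitional, 6.79 in stromal and 3.77 in AT2-like cells. Its IL-1β levels were 37.5 CPM in AT1-like cells and 1.59 to 1.99 in the other 3 classes, whose intervals overlapped.

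Among Rtkn2 and the genes of the actin skeleton, Rtkn2 rose 92.1-fold from AT2-like to AT1-like cells of the control library (interval 71.4 to 121) and 78.0-fold in the IL-1β library (interval 60.6 to 102), the highest ratios of the members, although the intervals of Hopx overlapped in both. Its control levels were 4.33 CPM in AT2-like, 31.7 in transitional, 399 in AT1-like and 7.16 in stromal cells. Its IL-1β levels in the same order were 2.83, 5.60, 220.5 and 2.01 CPM, so the transitional IL-1β cells lay near the AT2-like and stromal ones. Clic5 went from 13.7 CPM in control AT2-like cells to 137 in transitional and 803 in AT1-like cells, with 13.7 in stromal cells. With IL-1β it went from 14.0 to 132 and 414 CPM, with 7.30 in stromal cells. Lmo7 and Limch1 were also found in control stroma. Lmo7 stood at 51.7 CPM in control AT2-like, 247 in transitional, 547 in AT1-like and 141 in stromal cells, and at 35.3, 164, 435 and 15.7 CPM in the same classes of the IL-1β library. Limch1 stood at 18.5 CPM in control AT2-like, 44.4 in transitional, 385 in AT1-like and 66.0 in stromal cells, above transitional cells in control stroma. With IL-1β, Limch1 stood at 9.32, 11.2, 71.4 and 6.87 CPM in these classes, and the intervals of the AT2-like and transitional levels overlapped.

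Of the remaining members, Akap5 rose from 44.1 CPM in control AT2-like cells to 464 in transitional and 2184 in AT1-like cells, and from 23.8 to 218 and 1162 CPM in the IL-1β library. Its stromal level was 38.8 CPM in the control library, with an interval overlapping that of the AT2-like cells, and 8.67 in the IL-1β library. Hopx rose from 6.92 CPM in control AT2-like cells to 62.1 in transitional and 425 in AT1-like cells, and from 5.13 to 53.4 and 262 CPM in the IL-1β library. Hopx stood at 5.61 CPM in control stroma and 2.54 in IL-1β stroma. S100a14 and Lmo7 had the lowest ratios of AT1-like to AT2-like cells in the control library, 10.4 (interval 8.79 to 12.2) and 10.6 (interval 9.70 to 11.54), which did not differ beyond counting error. S100a14 went from 14.5 CPM through 58.3 in transitional cells to 149.8. After IL-1β, S100a14 stood at 45.9 CPM in AT2-like, 235 in transitional and 307 in AT1-like cells, and its AT1-like level exceeded the transitional one only 1.31-fold (interval 1.196 to 1.43).

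**Figure D1:**
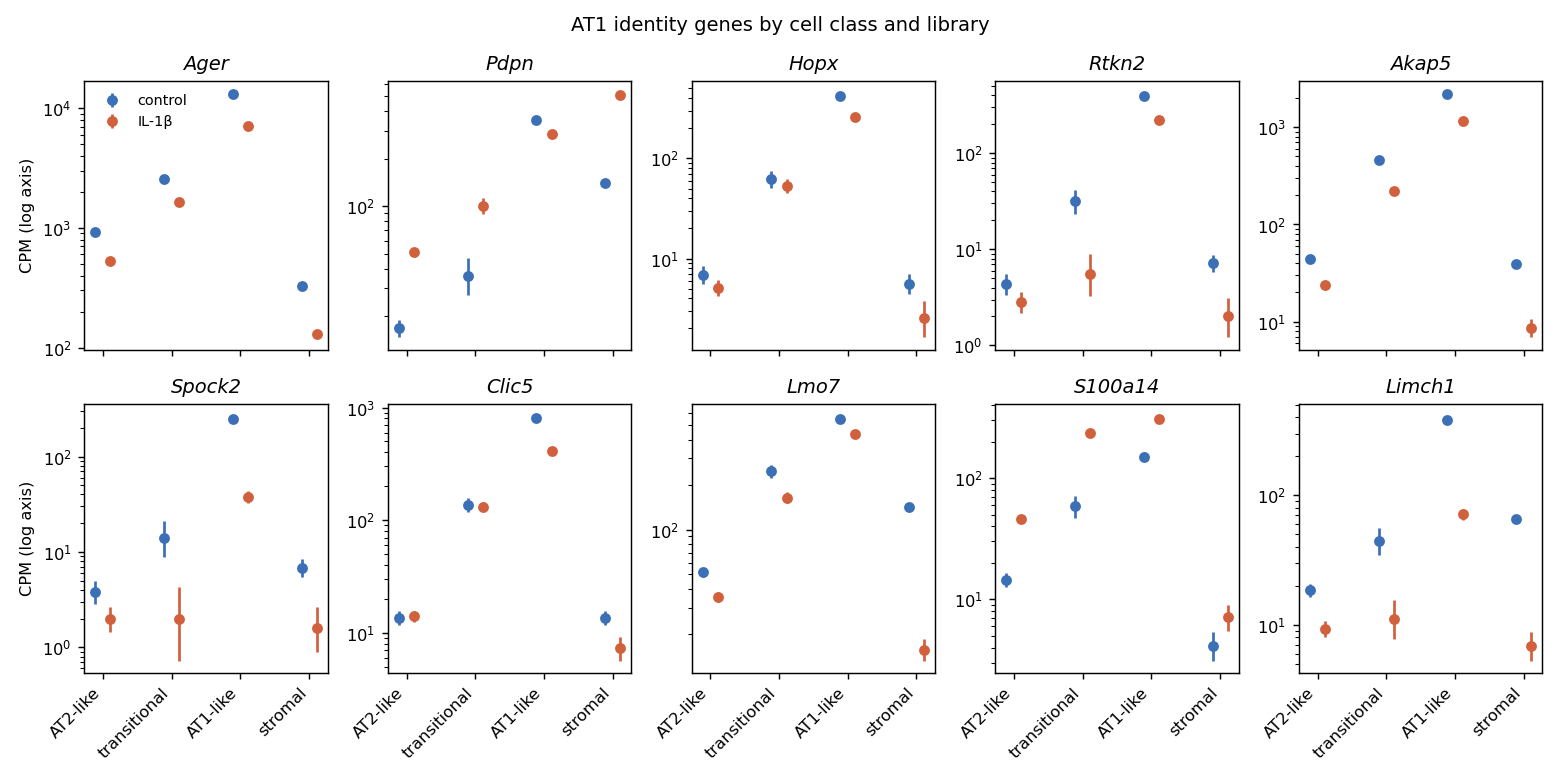
Level of each member in CPM (log axis, a separate scale for each gene) in AT2-like, transitional, AT1-like and stromal cells of the control (blue) and IL-1β (orange) libraries; points are sums over the cells of a class and bars are exact Poisson 95% intervals. AT1-like cells are the highest class for every member except Pdpn in the IL-1β library, where stromal cells stand at 506 CPM.

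The cells named transitional held the members at intermediate levels in the control library and only in part in the IL-1β library. The 9 transitional markers summed to 1658 CPM in control and 4051 in IL-1β transitional cells. The control value stood above the 573 CPM of control AT2-like cells but equalled the 1657 CPM of control AT1-like cells within counting error. The sum thus set the control class apart from AT2-like cells and not from AT1-like cells. Taken one by one, the markers differed. Their mean log2 fold over the remaining control epithelial cells was 1.23 in the transitional cluster and 0.58 in the 227 AT1-like cells. Cldn4 stood at 68.5 CPM (interval 56.2 to 82.7) in control transitional cells and 28.6 (interval 23.1 to 35.1) in these AT1-like cells. Krt8 stood at 478 CPM in control transitional cells and 531 in 227 control AT1-like cells. It stood at 266 CPM in the main control AT2-like cluster of 875 cells and 485 in another of 50 cells. In control organoids 10 of 10 members were over 2-fold higher in transitional than in AT2-like cells, against 6.31% of 9970 genes. The lowest ratios were 2.16 for Pdpn and 2.41 for Limch1, whose intervals reached below 2, and the highest were 10.5 for Akap5 and 9.997 for Clic5. After IL-1β, 6 of 10 passed 2-fold, against 4.7% of 10937 genes. Akap5 (9.17-fold), Clic5 (9.43-fold) and Hopx (10.4-fold) had ratios close to those of the control library (10.5, 9.997 and 8.98). Pdpn (1.95-fold) and Rtkn2 (1.98-fold) fell just short of 2-fold, Limch1 reached 1.202 (interval 0.811 to 1.73) and Spock2 0.994 (interval 0.347 to 2.34), the last from 6 UMIs in transitional cells.

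The comparison of IL-1β with control organoids asks how the cytokine bears on AT1 differentiation. In AT1-like cells, Spock2 and Limch1 were lower past 2-fold in the IL-1β library and S100a14 was higher past 2-fold. Spock2 went from 246 CPM to 37.5, a ratio of 0.153 (interval 0.130 to 0.179), and Limch1 from 385 to 71.4, a ratio of 0.186 (interval 0.165 to 0.208). S100a14 went from 149.8 CPM to 307, a ratio of 2.05 (interval 1.85 to 2.27). Past 2-fold lower were 3.61% of the 9329 genes with enough UMIs and past 2-fold higher 4.75%. The ratio was 0.534 for Ager (interval 0.527 to 0.542), 0.532 for Akap5, 0.516 for Clic5, 0.552 for Rtkn2 and 0.615 for Hopx, none of which passed 2-fold. Pdpn (0.814) and Lmo7 (0.796) differed least. The interval lay below 1 for 9 of 10 members. Intervals for counting error narrow as UMIs rise, and the share of all genes with such an interval was not counted. The median log2 ratio of the members was -0.88, beside -0.02 over all genes. Because Ager, Akap5, Clic5 and Rtkn2 lay close to the cutoff, the count of members lower past 2-fold was 6 when CPM was averaged per cell and 6 when the 5% of cells with the highest doublet scores were left out. The share of all genes lower past 2-fold was not counted under these settings. S100a14 was below 2-fold under 4 of 15 alternatives, down to 1.74. When clusters were named against both libraries, only 3 IL-1β cells were AT1-like and no ratio was computed. Median depth was 11674.5 UMIs in control and 11560.5 in IL-1β AT1-like cells. The transitional markers summed to 1657 CPM in control and 3074 in IL-1β AT1-like cells, while the 10 AT2 markers summed to 32807 and 33291. Single AT2 markers went in different directions. Sftpc stood at 26174 CPM in 227 control and 19985 in 396 IL-1β AT1-like cells. Sftpd had 2851 of 3290423 UMIs in control and 33966 of 5225680 in IL-1β AT1-like cells. The part of either marker list in these differences was not tested.

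Outside the AT1-like class, Pdpn and S100a14 were the members higher in the IL-1β library. In AT2-like cells Pdpn was 3.07-fold higher (16.7 to 51.3 CPM, interval 2.67 to 3.54) and S100a14 3.17-fold higher (14.5 to 45.9 CPM, interval 2.73 to 3.70), where 8.16% of 11479 genes were higher past 2-fold. With clusters named against both libraries, the main control AT2-like cluster of 875 cells took no name. Of the 62 control AT2-like cells left, 50 were of a cluster led by cell cycle genes such as Ube2c and Cdc20. Against these 62 cells the ratios were 1.66 (interval 1.19 to 2.39) for Pdpn and 1.90 (interval 1.296 to 2.91) for S100a14, and neither passed 2-fold. With the names as first given, no member was lower past 2-fold in AT2-like cells, against 4.48% of genes. Limch1 (0.505), Spock2 (0.527) and Akap5 (0.540) lay near the cutoff. The intervals of 7 members lay below 1, a share likewise not counted over all genes. The number of members lower past 2-fold in AT2-like cells was 1 to 5 with other clusterings and reached 6 with the 5% of cells of highest doublet score removed, so the count of 0 was not stable. The share of all genes lower past 2-fold was not counted under these alternatives. The AT2-like cells of the IL-1β library were not uniform. The cluster of 513 cells led by Slc26a4 and Ifi27l2a, whose mean AT2 marker fold was -0.02, held Ager at 1034 CPM, Pdpn at 72.1 and S100a14 at 69.0, whereas a cluster of 693 cells held 286, 39.7 and 35.1 CPM. In all 5 IL-1β clusters of the class Pdpn stood above the 15.7 CPM of the main control AT2-like cluster. Stromal transcripts were also caught with IL-1β AT2-like cells. Col1a2 stood there at 32.6 CPM (1474 in IL-1β stroma), Dcn at 136 (5668) and Mgp at 1332 (28691). In control AT2-like cells they stood at 31.1, 5.38 and 541 CPM. All other markers of the stromal list were lower in IL-1β than in control AT2-like cells. Among them were Sparc (273 to 213 CPM), Col3a1 (42.2 to 24.1), Col1a1 (25.4 to 23.5) and Acta2 (13.6 to 1.72). IL-1β stroma was the class highest in Pdpn, and the part of free stromal RNA in the epithelial Pdpn levels was not tested. In transitional cells Pdpn was 2.76-fold higher (interval 2.08 to 3.73) and S100a14 4.02-fold higher (interval 3.23 to 5.05), against 6.38% of 7755 genes. Rtkn2 (0.177), Limch1 (0.252) and Akap5 (0.471) were lower past 2-fold there, against 2.86%. Spock2 had 22 UMIs in control and 6 in IL-1β transitional cells, too few to be counted.

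**Figure D2:**
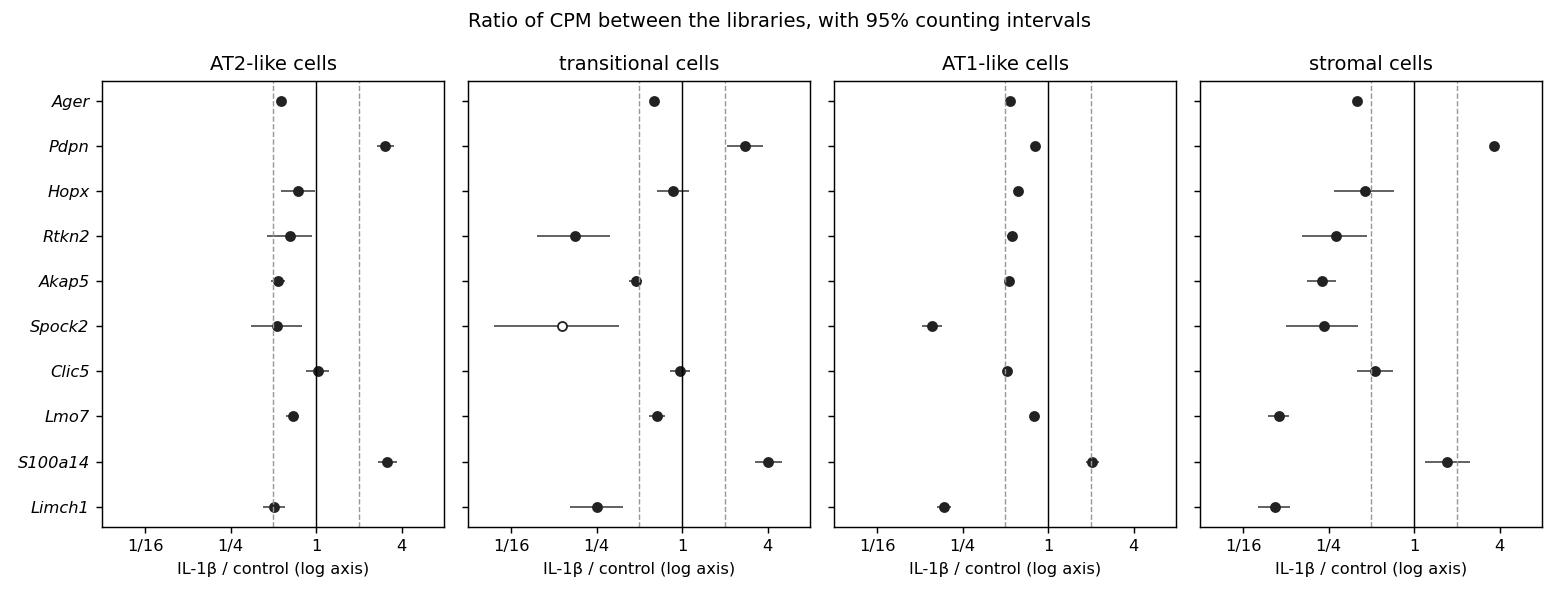
Ratio of CPM in the IL-1β over the control library (log axis) for each member in the 4 cell classes; bars are exact 95% intervals for counting error, dashed lines mark 2-fold, and the open circle has fewer than 50 UMIs. S100a14 lies to the right of 1 in every class, Pdpn lies to the right in all but AT1-like cells (at 0.814), and Spock2 and Limch1 lie at 0.153 and 0.186 in AT1-like cells.

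Stromal cells were taken both as a class of the culture and as a gauge of free RNA, since transcripts released from AT1 cells can be caught with any cell. Ager UMIs were found in 59.2% of control stromal cells after each cell was thinned to 4000 UMIs, and in 43.2% of IL-1β stromal cells. Unthinned median depths were 15723.5 UMIs in control stromal cells and 14849 in IL-1β stromal cells. A cluster of 79 control stromal cells led by Nkd2, with the alveolar epithelial genes Cldn18 and Gprc5a among its 8 leading genes, held Ager at 1102 CPM. In this cluster 7 members, Ager, Hopx, Rtkn2, Akap5, Spock2, Clic5 and S100a14, stood between 6.03% and 11.2% of their AT1-like level, and Cldn18 and Gprc5a at 8.59% and 8.24%. In the other 717 control stromal cells the same 7 members stood between 0.654% (Hopx) and 2.08% (S100a14) of the AT1-like level, with Cldn18 at 1.23% and Gprc5a at 0.995%. At this low share, near that of other alveolar transcripts, the 7 members are not read as expressed in those 717 cells. Sftpc, the surfactant gene of AT2 cells, also stood higher in the Nkd2 cluster, at 6140 against 3202 CPM, and what raised both sets of transcripts in these 79 cells was not tested. Over all stroma Sftpc stood at 3.67% of its AT2-like level in the control library and at 6.01% in the IL-1β library.

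Pdpn, Lmo7 and Limch1 stood apart from this background in control stroma. Among the 717 cells, Pdpn was at 37.6% of its AT1-like level (132 CPM), Lmo7 at 24.6% (134 CPM) and Limch1 at 18.2% (69.95 CPM). They were also distributed unevenly among stromal clusters. In the largest control cluster, of 582 cells, Limch1 was at 86.2 CPM and Lmo7 at 129, and in the 107 control cells of a cluster led by Acta2 and Tagln, genes of contractile cells, Limch1 was at 15.5 and Lmo7 at 176 CPM. Between the libraries the 3 genes went in different directions. Pdpn stood 3.63-fold higher in IL-1β than in control stroma (139 to 506 CPM, interval 3.44 to 3.83), at 574 CPM in the 283 cells of a cluster led by Mmp10 and at 490 CPM in the 168 cells of a cluster led by Dcn. Lmo7 was lower, 141 against 15.7 CPM (ratio 0.111, interval 0.0934 to 0.131), and Limch1 was lower, 66.0 against 6.87 CPM (ratio 0.104, interval 0.0797 to 0.134). The 4 mesothelial markers, genes of another podoplanin-rich cell, summed to 0.0738 CPM in control and 0.740 in IL-1β stroma. The 4 endothelial markers, whose lymphatic kind also carries podoplanin, summed to 2.51 CPM in control and 33.1 in IL-1β stroma, and their part in the Pdpn difference was not tested. In all, 7 members were lower past 2-fold in IL-1β stroma, against 11.8% of 11368 genes, and 1 was higher, against 4.19%. Of those 7, Lmo7 and Limch1 were the ones above background in control stroma. Without the 79 cells of the Nkd2 cluster 4 were lower and 2 were higher, the second being S100a14 at 2.27 (interval 1.499 to 3.49), whose level of 3.12 CPM in the remaining control stroma was at background. The share of all genes past 2-fold was not counted without these 79 cells.

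The same gauge was applied to AT2-like cells. In the control library Hopx, Rtkn2, Akap5, Spock2 and Clic5 stood in AT2-like cells at 1.09% to 2.02% of their AT1-like level, beside 0.654% to 1.58% in the 717 stromal cells. Hopx (1.63% and 0.654%), Akap5 (2.02% and 0.868%) and Clic5 (1.71% and 0.924%) were higher in AT2-like than in these stromal cells, while Spock2 (1.54% and 1.58%) and Rtkn2 (1.09% and 0.908%) lay closer together. Ager stood at 6.97% (interval 6.83 to 7.11), Lmo7 at 9.46%, S100a14 at 9.66%, Pdpn at 4.76% and Limch1 at 4.80% there. Ager UMIs were found in 92.4% of thinned control AT2-like cells, against 59.2% of control stromal cells. With IL-1β, Ager was at 7.42% of its AT1-like level in AT2-like cells and at 1.81% in stromal cells, and S100a14 was at 14.95% and 2.31%. Hopx (1.959% and 0.970%), Akap5 (2.05% and 0.746%) and Clic5 (3.38% and 1.76%) were also higher in AT2-like than in stromal cells with IL-1β, with intervals apart, whereas those of Rtkn2 (1.28% and 0.911%) and Spock2 (5.30% and 4.23%) overlapped. Ager and S100a14 thus stood farthest above the stromal level among the 7 members at background in stroma. Sftpc, Sftpb, Sftpa1 and Sftpd stood in control AT1-like cells at 13.2% to 34.8% of their AT2-like level, against 2.86% to 3.67% in control stroma. With IL-1β these ranges were 12.3% to 136% and 5.58% to 6.05%. The 136% was that of Sftpd (interval 134 to 137), which was thus higher in IL-1β AT1-like than in AT2-like cells. There Sftpd is not read as a transcript of AT2-like cells alone. Sftpc, Sftpb and Sftpa1 stood at 29.2%, 16.2% and 12.3%. Apart from Sftpd with IL-1β, epithelial classes thus held several of each other's transcripts above the stromal level. Whether AT2-like cells expressed Ager and S100a14 was not tested.

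**Figure D3:**
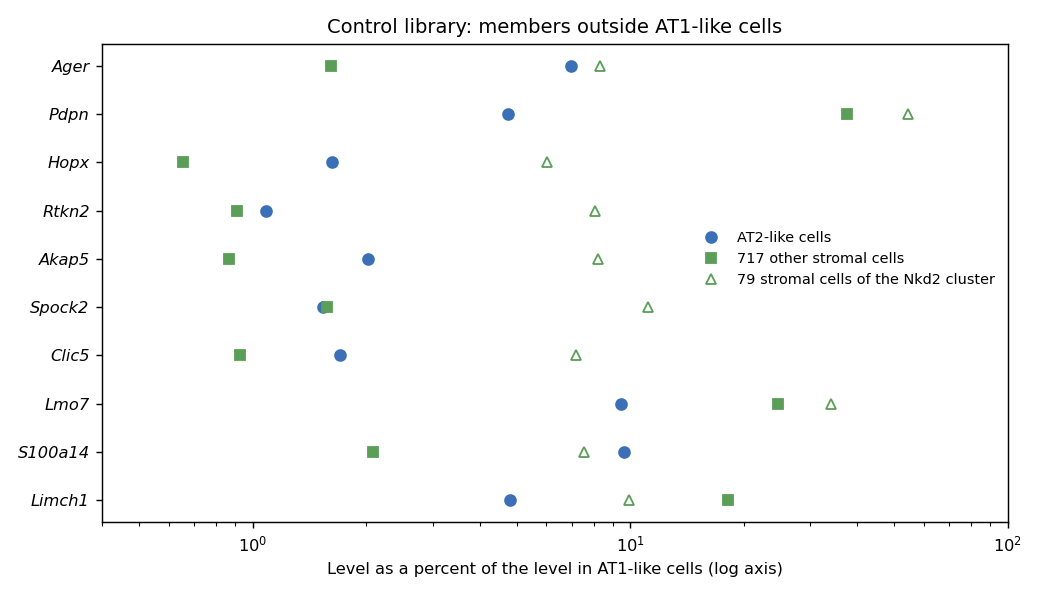
Level of each member outside AT1-like cells of the control library, as a percent of its AT1-like level (log axis), in AT2-like cells (blue circles), in 717 stromal cells (green squares) and in the 79 stromal cells of the Nkd2 cluster (open triangles). Of the squares, 7 lie between 0.654% and 2.08%, while Limch1, Lmo7 and Pdpn lie at 18.2%, 24.6% and 37.6%.

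Single AT1-like cells held more of the members than single cells of the other classes. The mean of this number follows from the share of cells with each member, so it does not show that members occur in the same cells. After thinning to 4000 UMIs per cell, which no cell fell short of, the median number of members found was 8 of 10 in control AT1-like cells and 6 of 10 in IL-1β AT1-like cells. At least 8 members were found in 59.1% of the control and 17.6% of the IL-1β AT1-like cells. The median was 3 in transitional cells and 1 in AT2-like cells of both libraries, and at least 5 members were found in 0.529% of control and 0.637% of IL-1β AT2-like cells. Among single members, Ager was found in 100% of thinned AT1-like cells of both libraries. It was also found in 92.4% of control and 75.1% of IL-1β AT2-like cells. Akap5 was found in 99.6% of control and 88.2% of IL-1β AT1-like cells, and Clic5 in 94.3% and 66.1%. Limch1 was found in 74.3% and 23.1% and Spock2 in 53.04% and 8.79%, each above its share in the stroma of its library (20.5% and 3.79% for Limch1, 2.51% and 0.842% for Spock2). S100a14 went the other way, found in 34.8% of control and 57.04% of IL-1β AT1-like cells.

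**Figure D4:**
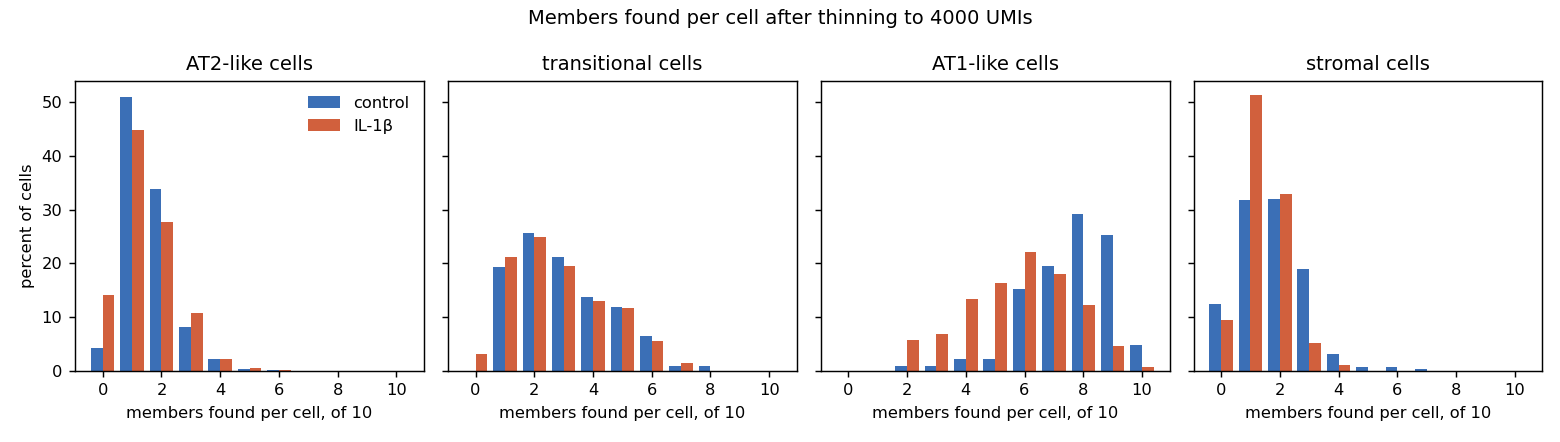
Number of the 10 members found per cell after thinning to 4000 UMIs, as a percent of the cells of each class, in the control (blue) and IL-1β (orange) libraries. The median of AT1-like cells is 8 members with PBS and 6 with IL-1β, and that of AT2-like cells is 1 in both.

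Pairs of members were correlated over single cells on log-scaled counts. Across all epithelial cells of a library, which mix AT1-like with other cells, the median Pearson r of the 45 pairs was 0.687 over the 1285 control and 0.434 over the 2583 IL-1β cells. Within AT1-like cells it was 0.219 with PBS and 0.329 with IL-1β. The cells of a library share their depth and preparation, so these values are descriptions. After thinning the medians were 0.172 and 0.179, and over 10 draws of the thinning they ranged from 0.134 to 0.171 and from 0.168 to 0.223. In AT2-like cells the medians were 0.0467 and 0.0723, and in such sparse counts they are no finding. Without thinning, the medians in transitional cells were 0.220 with PBS and 0.0873 with IL-1β, and in stromal cells 0.144 and 0.0153. The control AT1-like value was thus not particular to that class. The highest pair of control stroma, which takes in the Nkd2 cluster, was Hopx with Akap5 (0.504). At a clustering resolution of 2.0 the control AT1-like class took in 265 cells instead of 230, and its median was 0.415.

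In control AT1-like cells Limch1 with Ager (0.487), Limch1 with Clic5 (0.481), Clic5 with Ager (0.463) and Rtkn2 with Ager (0.460) were the highest pairs. The correlation of these members with depth was -0.39 for Ager, -0.22 for Rtkn2, -0.17 for Limch1 and -0.02 for Clic5. Over all members it ran up to 0.151 (Hopx) in the control, and from 0.0429 (Pdpn) to 0.231 (Hopx) with IL-1β. In IL-1β AT1-like cells Ager with Akap5 (0.528), Ager with Hopx (0.513) and Clic5 with Lmo7 (0.508) were the highest. S100a14 had the weakest links in the control, between -0.03 with Akap5 and 0.116 with Pdpn. Its correlation with the summed counts of the other members, most of them from Ager, was 0.0892. With IL-1β its correlation with that sum was 0.386, and that with the summed transitional markers was 0.367, against 0.104 in the control. For the other 9 members the correlation with transitional markers lay between -0.17 and 0.178 in both libraries except Akap5 in the IL-1β library, at -0.19. Each member was negatively correlated with the AT2 markers in AT1-like cells, from -0.09 (Hopx) to -0.38 (Ager) with PBS and from -0.23 (Pdpn) to -0.48 (Ager) with IL-1β. The list of 10 stromal markers moved with Ager over AT1-like cells (0.454 and 0.614), and Sparc made up 83.6% of that list's UMIs in control and 57.6% in IL-1β AT1-like cells.

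**Figure D5:**
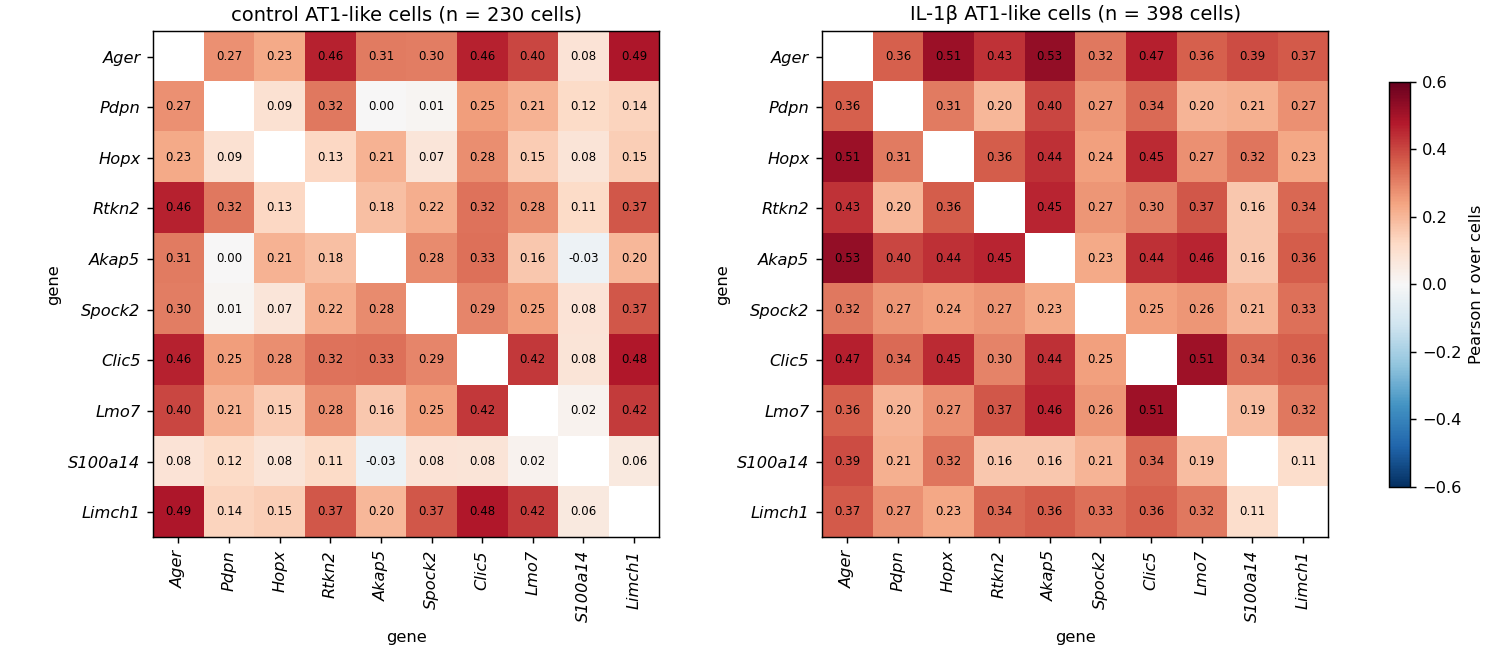
Pearson r between members over the AT1-like cells of the control library (left) and the IL-1β library (right), from log-scaled counts without thinning; the colour scale runs from -0.6 to 0.6. The S100a14 row is near 0 in the control library and reaches 0.39 with Ager in the IL-1β library.

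The genes whose levels were most like the mean of the members over control epithelial cells were Pmp22 (r 0.908), Fbln5 (0.902), Col4a3 (0.896), Col4a4 (0.880) and Gprc5a (0.865), among 9857 genes in 1285 cells. In the IL-1β library they were Fbln5 (0.795), Gprc5a (0.789), Sema3e (0.771), Hs2st1 (0.763) and Col4a4 (0.753), among 9649 genes in 2583 cells. Fbln5 encodes a protein of elastic fibers, and Col4a3 and Col4a4 encode basement membrane collagens and were among the naming markers. Sftpc had the opposite course, with r of -0.78 (control) and -0.63 (IL-1β).

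Other genes of AT1 cells and of the members' pathways were read in the same AT1-like cells. Of 15 further AT1 genes not used to name clusters, 14 were over 2-fold higher in AT1-like than in AT2-like cells of each library. Between the libraries, 2 of the 15 were lower past 2-fold in IL-1β AT1-like cells, Bdnf (149.5 to 53.2 CPM, ratio 0.356), a neurotrophin, and Timp3 (1025 to 483 CPM, ratio 0.471), an inhibitor of metalloproteinases. The tight junction gene Cldn3 was higher (373 to 980 CPM, ratio 2.63). The median log2 ratio of these 15 genes was -0.68, beside -0.02 over all genes. Of all 9329 genes with enough UMIs in AT1-like cells, 3.61% were lower and 4.75% higher past 2-fold. In lists this short, a few calls are not read as a change of the list. Of 14 measured regulators of AT1 fate, the YAP target Ctgf (97.9 to 22.6 CPM, ratio 0.231) and Tead4 (18.2 to 5.74 CPM, ratio 0.315), a partner of YAP, were lower past 2-fold, and none was higher. Tead1 lay at the cutoff with a ratio of 0.501 (188 to 94.3 CPM), while Nkx2-1 (1.25), Yap1 (1.28) and Wwtr1 (1.19) had ratios above 1. Among 14 measured genes for partners of the actin-linked members, the hyaluronan receptor Cd44 was higher (58.0 to 356 CPM, ratio 6.13), as was Rhoc (59.3 to 151 CPM, ratio 2.55), and none was lower. Like most genes, none of 5 measured RAGE ligand genes and none of 7 measured genes for AKAP5 partners passed 2-fold in either direction. S100a6 (ratio 0.552), S100a1 (1.66) and Prkca (0.551) were the farthest of these from 1.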

How the data were processed

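The authors deposited raw UMI counts for each gene in each cell, which the methods say came from Cell Ranger 2.0.2 and GRCm38. Their cutoffs were applied here: more than 500 and fewer than 7000 genes, more than 2000 UMIs. Scrublet, run per library as the methods describe, marked 0.0583% of cells and was regarded as not having worked. With scanpy 1.11.5, log-scaled counts (10000 a cell) of variable genes other than the members (1623 over all cells, 1353 over epithelial cells) gave 50 components, then 15 neighbors a cell. Leiden clusters (leidenalg 0.10.2, resolution 1.0) of all cells set stroma aside, and the epithelial cells were clustered again.

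An epithelial cluster was named for the marker list with the highest mean log2 fold (pseudocount 10 CPM) against the remaining epithelial cells of its library. This rule was chosen after the clusters were seen. A pair of clusters named AT2-like had a mean AT2 marker fold just under 0. The members, markers and lists were chosen with earlier results of these data known. CPM is the summed UMIs of a gene per 1000000 UMIs of a class, its 95% interval exact Poisson. Intervals of ratios are exact conditional binomial. A ratio past 2-fold was called for genes with at least 50 UMIs over both groups. With 1 library per group no test was made. All members are named. Other lists give genes past 2-fold between libraries in AT1-like cells, at most 6 a list, plus a few named for context after their values were seen, and the 5 genes most correlated with the members per library. In simulated data with counting error alone, 200 genes were changed well past the 2-fold cutoff. Of these, 100% were recovered in AT1-like and AT2-like cells and 99.5% in stromal cells. This checks the computation and says nothing of ratios near the cutoff or of spread between libraries. Alternatives varied the filter, doublet removal, clustering (with Louvain, as in the study), cluster names, scaling and weighting of cells, and removal of cells high in stromal markers.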

Additional observations from a re-analysis of the deposited data

Results flagged for a closer look

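Pdpn differed between the libraries in opposite directions in different classes. Its IL-1β to control ratio was 0.814 in AT1-like cells, 3.07 in AT2-like cells, 2.76 in transitional cells and 3.63 in stromal cells, with intervals on opposite sides of 1. The direction in AT1-like cells was not kept when the libraries were clustered separately, where the ratio was 1.01 (interval 0.933 to 1.09), and it was below 1 in the other 14 of 15 alternatives. The difference between the classes was not tested, as each condition has 1 library.

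The 9 airway-like cells of the IL-1β library entered no comparison. They held S100a14 at 270.2 CPM (interval 206 to 348), from 60 UMIs, above its level in every class of the control library. In their own library AT1-like cells held S100a14 at 307 CPM and transitional cells at 235, both within that interval.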

How the results depend on the processing

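No paired analysis was possible because each condition has 1 library and no result comes from a test. Left out for the same reason was the removal of a replicate. Spock2 and Limch1 were past 2-fold lower in IL-1β AT1-like cells under all 15 alternatives that gave a ratio (0.119 to 0.194 and 0.163 to 0.233), and Ager was lower under all 15 (0.461 to 0.652). Pdpn in AT1-like cells ranged from 0.745 to 1.01, the last with libraries clustered separately. Every member stayed over 2-fold higher in AT1-like than in AT2-like cells under every alternative that gave a value. Naming clusters against both libraries, chosen after seeing the data, left 3 IL-1β AT1-like cells and gave no values for them.

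With the 5% of cells of highest doublet score removed, 6 members were lower and 0 higher in IL-1β AT1-like cells, 6 were lower in AT2-like cells, and 4 were lower and 2 higher in stromal cells. With the mean of CPM per cell, 6 were lower and 0 higher in AT1-like cells, 2 lower in AT2-like cells and 2 higher in stromal cells. S100a14 was the member no longer higher, and the count of members higher in AT1-like cells was also 0 without mitochondrial, ribosomal protein and surfactant genes and without the 10% of cells highest in stromal markers. In AT1-like cells Sparc made up 83.6% (control) and 57.6% (IL-1β) of the UMIs of these markers. Sparc was among the 10 genes most like the members in both libraries, so this removal is no clean gauge of stromal RNA there. With Sparc left out of the list, a removal also chosen after seeing the data, S100a14 stayed past 2-fold higher in AT1-like cells. The count lower in AT2-like cells, 0 as reported, was 5 at a resolution of 0.5, 4 at 2.0, 1 with Louvain and 5 with libraries clustered separately. It was 4 with genes centered within libraries, 4 with members kept for clustering and 1 without the cells high in stromal markers. It was 3 without mitochondrial, ribosomal protein and surfactant genes. With names from both libraries it was 5, and the count higher was 0. Of the 62 control AT2-like cells under those names, 50 were of the cluster led by cell cycle genes. Leaving out the Nkd2 stromal cluster, also chosen after seeing the data, gave 4 lower and 2 higher members in stroma. The median correlation in control AT1-like cells was 0.415 at a resolution of 2.0, 0.484 with libraries clustered separately and 0.553 with names from both libraries, and that in IL-1β AT1-like cells was 0.179 after thinning. The causes were not tested. Ratios under the alternatives were computed for the members only, so their counts have no share over all genes beside them. Depth limited Spock2 in transitional cells, with 22 and 6 UMIs.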
